A study of Mus musculus with 15 samples.

Results

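The promoters described here are those of protein-coding transcripts that carried enough H3K4me1 ChIP-MNase fragments for nucleosome mapping while their gene was listed at an expression of 0 (FPKM, from RNA-seq of non-stimulated cells) in both dendritic cells (DCs) and 3T3 fibroblasts. They were chosen by these listed values: a coding transcript, a coverage score above 100 (fragments within 1000 bp of the transcription start site, TSS, averaged over the non-stimulated datasets), and 0 in both cell-types. Of 25881 promoters, 926 met the rule, and they are called silent promoters below. They came from 4810 coding promoters listed at 0 in both cell-types, of which 19.3% passed the coverage threshold, against 52.0% of all coding promoters. A listed 0 is not proof of no transcript, since 1 of 158 housekeeping genes was also listed at 0 in both cell-types.

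A nucleosome is DNA wrapped around a histone octamer, and at active promoters the region at the TSS is usually depleted of nucleosomes while the first nucleosome downstream (+1) takes a fixed position. H3K4me1, a mark of enhancers and of the flanks of promoters, is also found at promoters without transcription, which allows them to be recovered by ChIP. CpG islands are stretches rich in CpG dinucleotides that cover the promoters of most housekeeping genes and of many developmental regulators, whereas promoters of tissue-restricted genes more often lack them and carry a TATA box.

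ChIP-MNase measures nucleosome occupancy by digesting immunoprecipitated chromatin with micrococcal nuclease. The data comprised 15 libraries of mouse cells. H3K4me1 occupancy was available for DCs, differentiated in vitro from a bone marrow progenitor line, without stimulation and after 1 h of LPS (100 ng/ml), and for fibroblasts, without stimulation and after 1 h of TNF-α (5 ng/ml), each as 1 set into which the authors had pooled 2 replicates. Another 8 single H3K4me1 libraries were from control fibroblasts and from BAF-knockdown fibroblasts, non-stimulated or with TNF-α, with 2 replicates each. The knockdown used a retroviral shRNA against Brg1 and Brm, the ATPases of the BAF remodelling complex, in cells sorted for GFP as a population, and the mRNA of both genes in these libraries was not analysed here. TNF-α-stimulated fibroblasts were further profiled with antibodies against RNA polymerase II phosphorylated at serine 7 (pol-II S7P, 2 libraries) and serine 5 (pol-II S5P, 1 library). Pol-II libraries were sequenced paired-end and H3K4me1 libraries single-end, so that antibody and read type cannot be told apart, and the DCs and fibroblasts received different stimuli. The study describes its replicates as biological and independent, and it lists replicates for S5P too, so the single S5P file may combine more than one sample.

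The occupancies are relative to the local 1 kb and hold no counts, so depth is unknown and levels cannot be compared between promoters; the share of the 200 bins (10 bp each) with any signal, here the breadth, is given in its place. Breadth of silent promoters averaged 86.0 to 89.8% for the 4 pooled sets, 62.1 to 67.8% for the 8 single H3K4me1 libraries and 49.4 to 63.3% with pol-II antibodies. All 14 DC markers were listed above 0 in DCs, with a median of 24.4 FPKM there against 0.0986 in fibroblasts, and all 14 fibroblast markers were above 0 in fibroblasts (197 against 0.0322 FPKM in DCs). None of these markers and none of the housekeeping genes were among the silent promoters. For comparison, 5259 covered coding promoters exceeded 0.02 times the mean expression of all promoters in each cell-type (expressed promoters).

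The sequences upstream of selected silent promoters show how far they differ in CpG content. Each is the 150 bases from -150 to -1 bp of the TSS in the mm9 build, written 5′ to 3′ on the strand of the gene, with CG dinucleotides in capitals. The first 3 are promoters with very low occupancy in the 150 bp upstream of the TSS, of which Bcor and Eya3 lie in CpG islands and Pax4 does not. Hes2 and Klra6, with and without a CpG island, had high occupancy there on average over the pooled sets. Hes2 did not keep this in the 8 single H3K4me1 libraries. There its log2 ratio of occupancy in this window to that at -1000 to -500 bp ran from -3.505 to 4.148 with a median of -0.0377. Gm20765 lies in a repeated block in which single libraries mostly had no fragments.
Bcor (chrX:11657680-11657829, minus strand): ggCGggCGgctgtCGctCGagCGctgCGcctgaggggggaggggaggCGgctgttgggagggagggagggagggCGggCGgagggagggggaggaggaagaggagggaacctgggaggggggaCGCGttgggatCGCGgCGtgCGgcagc
Eya3 (chr4:132194812-132194961, plus strand): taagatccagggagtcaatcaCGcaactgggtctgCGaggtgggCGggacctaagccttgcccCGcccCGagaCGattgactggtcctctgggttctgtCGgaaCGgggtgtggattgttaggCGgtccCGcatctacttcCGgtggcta
Pax4 (chr6:28399341-28399490, minus strand): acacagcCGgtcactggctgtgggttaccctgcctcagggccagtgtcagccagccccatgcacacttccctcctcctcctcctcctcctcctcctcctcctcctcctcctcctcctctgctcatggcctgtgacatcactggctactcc
Hes2 (chr4:151532827-151532976, plus strand): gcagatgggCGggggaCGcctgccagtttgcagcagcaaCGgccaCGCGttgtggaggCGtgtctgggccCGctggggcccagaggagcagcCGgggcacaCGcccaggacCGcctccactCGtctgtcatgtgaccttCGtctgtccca
Klra6 (chr6:129976973-129977122, minus strand): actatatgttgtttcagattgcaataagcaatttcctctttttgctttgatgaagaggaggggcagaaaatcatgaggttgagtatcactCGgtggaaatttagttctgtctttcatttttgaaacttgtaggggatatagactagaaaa
Gm20765 (chr10:103605420-103605569, plus strand): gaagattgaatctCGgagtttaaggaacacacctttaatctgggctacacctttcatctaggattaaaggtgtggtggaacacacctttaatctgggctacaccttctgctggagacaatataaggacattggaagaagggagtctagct
The Bcor and Eya3 windows hold 15 and 11 CG dinucleotides, the Hes2 window 12, and those of Pax4, Klra6 and Gm20765 hold 1 each. In the Pax4 window a triplet is repeated 16 times in a row close to the TSS.

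Most silent promoters lacked a CpG island (within 200 bp of the TSS, over 50% G and C, and CpG at over 0.6 of the frequency that base composition predicts). Islands were found at 113 silent promoters (12.2%), against 82.2% of expressed promoters and 7.62% of the 3884 silent coding promoters below the coverage threshold. The median observed to expected CpG ratio was 0.222 at silent and 0.817 at expressed promoters, and the median GC content 52.5% and 63.75%. Silent promoters of low coverage had a median CpG ratio of 0.176, close to the covered ones, although the covered silent and the expressed promoters had similar median scores of 177 and 183.

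Short motifs followed the same division. The TATA box (TATAAA, lying wholly between -40 and -20 bp, promoter strand only) was found at 65 silent promoters (7.02%), against 0.666% of expressed, 1.72% of all covered coding and 5.25% of low-coverage silent promoters. On either strand between -150 and -1 bp, the GC box GGGCGG, bound by Sp1, was found at 15.7% of silent and 55.8% of expressed promoters, against 45.0% of all covered coding promoters. The ETS core CCGGAAG was found at 1.19% against 16.1% (9.86% of all covered coding promoters), and the NRF1 site at 0 silent promoters against 1.58% (1.01%). The CRE TGACGTCA, the site of CREB, was found at 0.324% against 2.78% (2.05%). CCAAT, the NF-Y motif, differed little between 25.8% and 28.8% (26.8%). The GC box, ETS core, NRF1 site and CRE each contain CpG. Within CpG islands the GC box was found at 56.6% of silent and 61.8% of expressed promoters, and the ETS core at 2.65% and 18.4%. The NRF1 site was found there at 0 and 1.87%, and the CRE at 0.885% and 3.05%. Of these CpG-containing motifs the GC box differed least in relative terms among island promoters. CCAAT did differ within islands, with 15.9% of silent and 29.2% of expressed promoters. These shares are descriptions without a test. Among the TATA-containing silent promoters were those of the osteocalcin gene Bglap2, the lung chemokine gene Cxcl15 and several hair keratin-associated genes. Their 40 bases from -50 to -11 bp are shown with the motif in capitals.
Bglap2 (chr3:88182632-88182671, minus strand): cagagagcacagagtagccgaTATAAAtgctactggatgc
Cxcl15 (chr5:91223511-91223550, plus strand): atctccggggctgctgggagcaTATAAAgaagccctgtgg
Krtap4-13 (chr11:99665775-99665814, minus strand): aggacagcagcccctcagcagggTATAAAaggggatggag
Krtap1-4 (chr11:99445002-99445041, minus strand): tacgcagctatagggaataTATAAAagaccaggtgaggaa
Krtap1-5 (chr11:99442341-99442380, minus strand): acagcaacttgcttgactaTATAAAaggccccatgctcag
The motif starts between -31 and -27 bp in these 5 windows.

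The silent promoters belonged to 810 named genes, with 67 promoters lacking a symbol in the reference. Olfactory receptors, the odorant receptors of sensory neurons, and keratins with keratin-associated proteins, the structural proteins of epidermis and hair, were the families most often silent when covered: 71 of 92 covered olfactory receptor genes (77.2%) and 30 of 37 covered keratin genes (81.1%) were among them. Among families with at least 20 covered genes, immune signalling followed with 19 of 53 interleukin, chemokine and interferon genes (35.8%), and then 10 of 30 serpins, 23 of 105 other G protein-coupled receptors and 12 of 68 homeobox genes. Of smaller families, claudins had 5 of 13 and FGF ligands 3 of 8. At the other end were numbered zinc finger genes with 1 of 184 and replication-dependent histones with 1 of 64, and none of 27 covered protocadherin, 14 collagen, 7 BMP, GDF and activin or 6 SOX genes was included. Of covered marker genes of other cell-types, 4 of 13 for B cells (Vpreb1, Vpreb3, Igll1 and Rag2), 3 of 13 for T cells (Cd3d, Cd3g and Tbx21) and 2 of 9 for epithelium (Krt5 and Trp63) were included. Most covered markers on these lists were thus not among the silent promoters. Neuron, muscle, liver and erythroid lists gave none of 8, 10, 3 and 7 covered genes. Of all covered coding promoters, 7.83% were silent promoters. These counts restate the expression and coverage used by the rule and carry no test. Families differed in CpG islands: 10 of the 13 homeobox promoters lay in one, but 0 of the 71 olfactory receptor and 0 of the 30 keratin promoters.

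Some silent promoters lay close to each other in the genome. When members no more than 1e+05 bp apart were joined, 22 clusters of 5 or more held 173 of them (18.7%), and 404 stood alone. Other promoter sets were not joined in this way, so these counts have no background. Among the larger clusters were the keratin-associated genes on chr11:99412177-99527274 (16 promoters), the type I interferon genes on chr4:88290363-88495992 (11), the Ly49 receptor genes of natural killer cells (Klra) on chr6:130079853-130336892 (11) and the claudin and serine protease genes on chr17:23737824-24135067 (12). Another annotated TSS lay within 1000 bp of 141 silent promoters (15.2%) against 34.9% of expressed promoters, and an expressed one within 1000 bp of 48 (5.18%) against 34.2%. Of the 926, 77 belonged to a gene of which another transcript was listed above 0.

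Nucleosome depletion at the TSS was measured as the TSS occupancy ratio, which sets the mean occupancy of a class at -150 to 0 bp against that at -1000 to -500 bp, so that 1 means no depletion. For silent promoters it was 0.948 and 0.985 in non-stimulated and LPS-stimulated DCs, 0.958 and 0.973 in non-stimulated and TNF-α-stimulated pooled fibroblasts, 0.914 to 1.01 in the 8 single H3K4me1 libraries, 0.906 and 0.954 for S7P, and 0.955 for S5P. For expressed promoters the same libraries gave 0.499 and 0.473, 0.462 and 0.406, 0.492 to 0.672, 0.718 and 0.669, and 0.399. The ranges did not overlap in any type of library. Over the 8 single libraries, silent promoters had a ratio of 0.953 ± 0.0372 (SD, n = 8) and expressed promoters 0.576 ± 0.0769, and the difference of 0.376 ± 0.0846 had the same sign in 8 of 8 libraries (two-sided exact sign-flip permutation test, p = 0.00781, the smallest this design can give; adjusted p = 0.0104 over 4 class comparisons).

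The rest of the profile was equally flat. At expressed promoters the highest occupancy downstream of the TSS lay at 135 or 145 bp in every library and was 1.36 to 2.31 times the mean of the whole class profile. At silent promoters it was 0.946 to 1.17 times that mean and lay anywhere from 25 to 295 bp, so no common +1 position was seen. The standard deviation of the silent class profile along the promoter, divided by the mean of the profile, was 0.0330 to 0.0413 in the pooled sets, against 0.185 to 0.224 at expressed promoters.

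**Figure D1:**
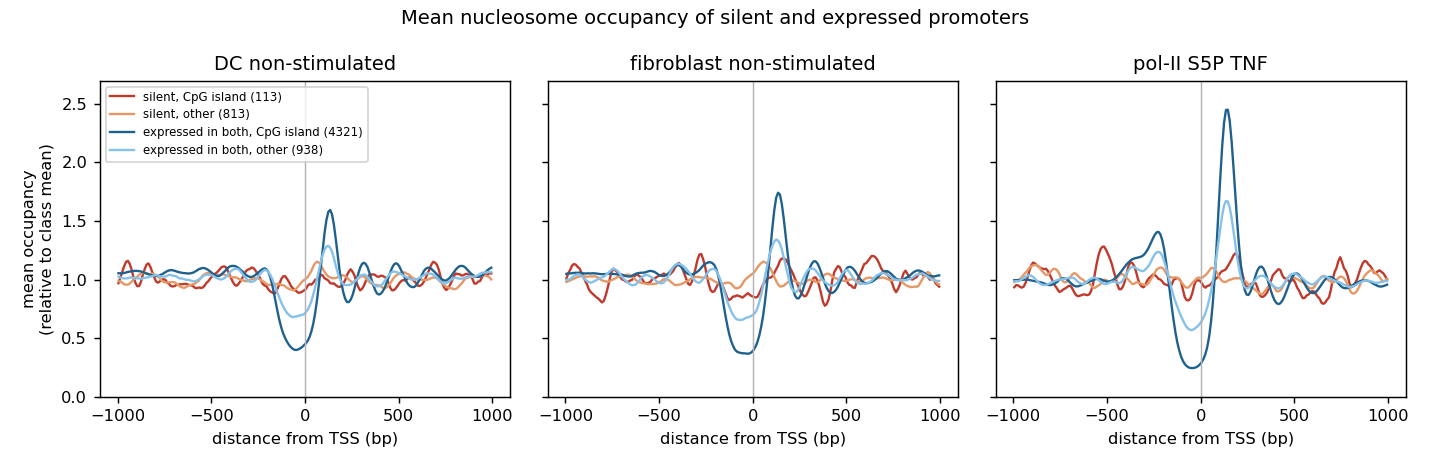
Mean occupancy relative to the class mean (y axis) against distance from the TSS in bp (x axis) in non-stimulated DCs, non-stimulated pooled fibroblasts and pol-II S5P, for silent and expressed promoters with and without a CpG island (number of promoters in brackets). Expressed promoters dip at the TSS and peak near 135 bp, whereas silent promoters stay close to 1 with, in fibroblasts, a shallow dip of the 113 CpG island promoters.

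CpG island promoters among the silent ones were slightly depleted in fibroblasts. In the 8 single libraries their ratio was 0.738 to 0.919, against 0.931 to 1.02 for the 813 other silent promoters. The means were 0.838 ± 0.0575 and 0.970 ± 0.0362 (SD, n = 8), and the difference of -0.132 ± 0.0391 was negative in 8 of 8 libraries (exact sign-flip permutation, p = 0.00781, adjusted p = 0.0104). The pooled fibroblast sets showed 0.864 against 0.971 without stimulation and 0.841 against 0.992 with TNF-α. In DCs the classes were alike, at 0.947 against 0.948 and 0.979 against 0.986. With 2 pooled sets per cell-type an exact test cannot go below p = 0.333, so the difference between cell-types was not tested. In pol-II libraries, island minus other was -0.0327 and -0.0913 for S7P and -0.0242 for S5P.

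The depletion of silent CpG island promoters remained far smaller than that of expressed ones. Expressed CpG island promoters (4321) had a ratio of 0.536 ± 0.0858 in the 8 single libraries, lower than the silent ones by 0.301 ± 0.0831 in 8 of 8 (exact sign-flip permutation, p = 0.00781, adjusted p = 0.0104). In non-stimulated DCs the values were 0.453 for expressed and 0.947 for silent islands. The 48 silent promoters within 1000 bp of an expressed TSS had 0.878 ± 0.173 and the 785 isolated ones 0.962 ± 0.0358 (SD, n = 8 libraries), a difference of -0.0842 ± 0.161 that was negative in 5 of 8 libraries and did not exceed the spread (exact sign-flip permutation, p = 0.172, adjusted p = 0.172). Without replicate 2 of the non-stimulated knockdown libraries this difference was -0.0377, and with 1 promoter per gene -0.0460. The 62 silent promoters outside islands with a TATA box ranged from 0.848 to 1.15 over the 15 libraries and the 751 without one from 0.914 to 1.04, and these ranges overlap.

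**Figure D2:**
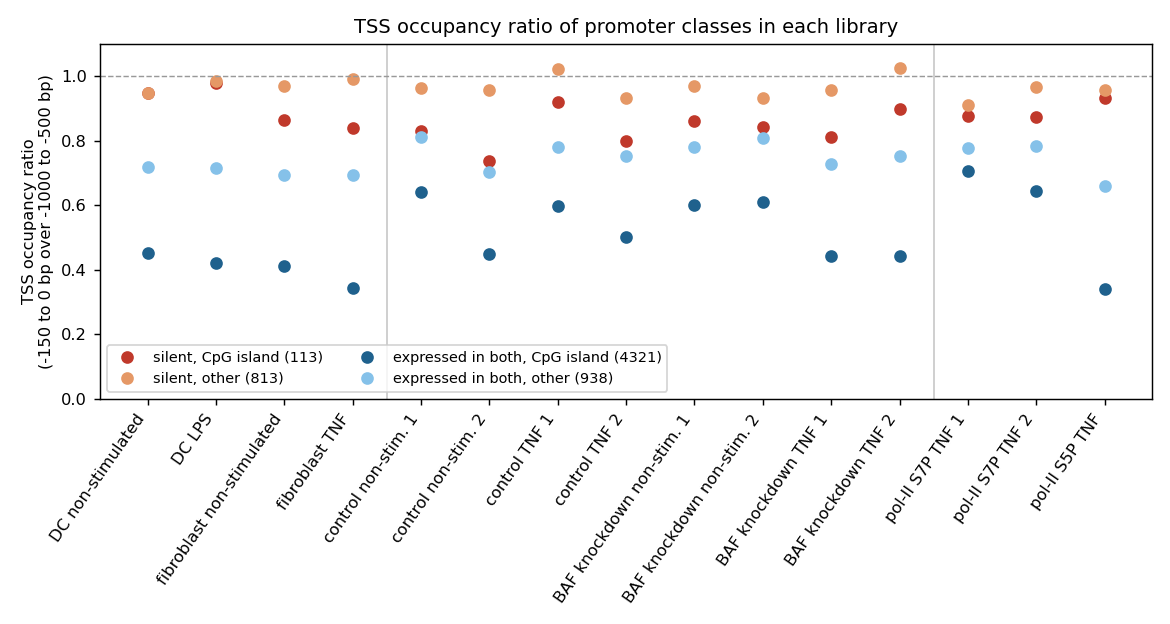
TSS occupancy ratio (y axis, 1 means no depletion) of silent and expressed promoters with and without a CpG island in each of the 15 libraries (x axis; each point is 1 class in 1 library). In the 8 single H3K4me1 libraries silent island promoters lie at 0.738 to 0.919, below the other silent promoters and above the expressed island promoters, while in the 2 DC sets both silent classes coincide.

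Within families the class ratio was noisier because fewer promoters enter it. The 71 olfactory receptor promoters had 0.948 to 1.21 in the 8 single libraries and the 30 keratin promoters 0.778 to 1.32. The 19 interleukin, chemokine and interferon promoters had 0.667 to 1.00, and the 13 homeobox promoters 0.714 to 1.01. These are descriptions of lists without a test, and all 4 ranges overlap.

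No difference of the silent class on BAF knockdown or TNF-α stimulation exceeded the spread between libraries. The 4 knockdown libraries had a TSS occupancy ratio of 0.956 ± 0.0378 (range 0.920 to 1.01) and the 4 control libraries 0.949 ± 0.0421 (0.914 to 1.01), a difference of 0.00640 (two-sided exact permutation test of 8 libraries, p = 0.771, with 0.0286 the smallest possible). TNF-α-stimulated libraries had 0.968 ± 0.0486 and non-stimulated ones 0.938 ± 0.0168 (SD, n = 4), a difference of 0.0297 (exact permutation, p = 0.343) that lay between 0.0156 without replicate 1 and 0.0474 without replicate 2 of the TNF-α-stimulated controls. Within replicate numbers, the knockdown difference was positive in 2 of 4 and the TNF-α difference in 2 of 4. The ranges overlapped in both comparisons.

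Promoter by promoter, patterning was quantified by the level of match to the mean profile of active promoters in the same cell-type, and all 13559 covered promoters were fitted with limma. No silent promoter was called for BAF knockdown at an adjusted p below 0.05, as was no promoter at all (background 0.0%); at an unadjusted p below 0.05, limma gave 40 of 926 silent promoters against 792 of all promoters tested (5.84%). For TNF-α, the interaction of both, DCs against fibroblasts, and S7P against H3K4me1, limma likewise called 0 silent promoters and 0.0% of all. At an unadjusted p below 0.05 there were 42 for TNF-α (5.68% of all promoters), 42 for the interaction (5.65%), 60 for cell-type (8.58%) and 50 for S7P (6.39%). As shares of the silent promoters these counts were 4.32% for BAF knockdown, 4.54% for TNF-α and for the interaction, 6.48% for cell-type and 5.40% for S7P. Silent promoters without fragments in these libraries cannot pass and have a difference of 0. Over the 837 with fragments in every library, a choice made after seeing the data, the counts at an unadjusted p below 0.05 were 33, 34, 28, 63 and 52 in the same order, against 689, 631, 671, 1184 and 816 of all 13295 such promoters. Their median differences were 0.0136 units of patterning for BAF knockdown, -0.124 for TNF-α, -0.188 for the interaction, 0.597 for DCs minus fibroblasts and 0.314 for S7P, where all promoters had 0.0956, 0.293, 0.702, -0.446 and 0.299. The cell-type fit leaves 1 residual degree of freedom, from pooled sets, so it says little about stability.

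The silent promoters of smallest p therefore show the extremes of single-promoter differences, without a call. Over all 926 silent promoters the quartiles of the BAF knockdown difference were -1.98 and 1.81. Picking by p favours groups without overlap, and the share of all promoters without overlap was not counted. Tpd52, a vesicle trafficking gene of which another transcript was listed above 0, had patterning levels of 6.72 to 8.60 in the 4 control and -4.39 to 0.0795 in the 4 knockdown libraries, without overlap. The difference was -10.02 with a standard error of 1.56 (limma, adjusted p = 0.696). Spata3, a testis gene, had 2.84 to 10.4 in controls and -5.94 to -2.78 on knockdown, also without overlap (difference -10.1, standard error 1.64, limma adjusted p = 0.802). Prom1, encoding the stem cell antigen CD133, had 0.843 to 4.36 in the 4 non-stimulated and -9.52 to -4.78 in the 4 TNF-α libraries (-9.29, standard error 1.66, limma adjusted p = 0.867). Between cell-types, Dmrtc1a had 19.9 and 52.6 in DCs against -14.8 and 12.5 in fibroblasts (37.4, standard error 6.57, limma adjusted p = 0.158).

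Low occupancy at single silent promoters was rare. A promoter was counted as depleted in a cell-type when its own log2 ratio was below -1 in both states of that cell-type in the pooled sets; a small constant (0.1 times the mean occupancy of the library) was added, so that an empty TSS window does not give an infinite value. This held in both cell-types for 15 silent promoters (1.62%), in DCs only for 27 and in fibroblasts only for 25, against 1398 of 5259 expressed promoters (26.6%) in both. Of the 15, 6 lay in a CpG island. The count depended on where the window lay: with -100 to 50 bp, tried after the values were seen, 9 silent promoters were depleted in both cell-types (0.972%), 8 of them among the 15, and Ang4, Bcor, Erich4, Fgf8, Foxj1, Pax4 and Sncaip were no longer counted. Expressed promoters then numbered 1478 (28.1%). The 15 silent promoters of the first window were also read in libraries that had not served to choose them. Their class ratio was 0.131 to 0.602 in the 8 single libraries and 0.156 for pol-II S5P, but 0.751 and 0.910 for S7P. Across all silent promoters, log2 ratios of single promoters were poorly reproduced, with Spearman's rho of 0.201 to 0.225 between replicates of the 4 single-library groups and 0.327 between the 2 DC sets (926 promoters, each pair sharing the promoters' sequence and mappability).

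Clec2g, a C-type lectin gene, was low in most libraries. Its log2 ratios were -2.37 and -2.27 in DCs, -2.96 and -2.83 in pooled fibroblasts, and between -3.79 and -3.08 with a median of -3.41 in the 8 single libraries, all 8 below -1. Pol-II S7P gave -3.77 and -3.73, whereas S5P had no signal in either window, which gives 0. All 14 other libraries were thus low.

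Fgf8, a growth factor gene of embryonic patterning, gave -3.41 and -3.42 in DCs, -1.97 and -3.55 in pooled fibroblasts, and a median of -2.74 (-3.86 to 0.0507) in the single libraries, of which 6 of 8 were below -1. Foxj1, the regulator of motile cilia, had -2.66 and -3.53 in DCs, -1.58 and -2.77 in fibroblasts and a median of -2.99 (-3.63 to -0.536), 7 of 8 below -1, but 1.67 and 1.37 in S7P. Both genes act in development, and both were low in DCs and fibroblasts in this window, whereas with -100 to 50 bp the mean of the pooled sets went from -3.09 to -0.65 for Fgf8 and from -2.63 to -0.40 for Foxj1, both above -1. Pax4, a factor of pancreatic endocrine cells outside any island, had -3.37 and -3.25 in DCs, -3.24 and -3.49 in fibroblasts and a median of -2.14 (-3.19 to -0.864), 7 of 8 below -1, with 0.960 and 0.505 in S7P, and its pooled mean went from -3.34 to -1.08 with the moved window.

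Bcor, encoding a BCL6 corepressor, and Eya3, encoding a transcriptional coactivator and phosphatase, were low in both cell-types as well, but other transcripts of both genes were listed above 0, as for Grid2ip and Sncaip. Bcor had a mean log2 ratio of -3.15 in DCs and -3.29 in fibroblasts with 6 of 8 single libraries below -1, and Eya3 had -2.46 and -3.52 with 6 of 8. Erich4, Ang4, a ribonuclease gene of intestinal Paneth cells, and Tppp2 were below -1 in only 3, 2 and 3 of the 8 single libraries. The other 4 of the 15 were Gm20765, Gm4340 and 2 unnamed neighbours on chromosome 10, which shared 97.9 to 100% of their 32-base words with other promoters and had no fragments in 7 to 11 of the 11 single or pol-II libraries.

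**Figure D3:**
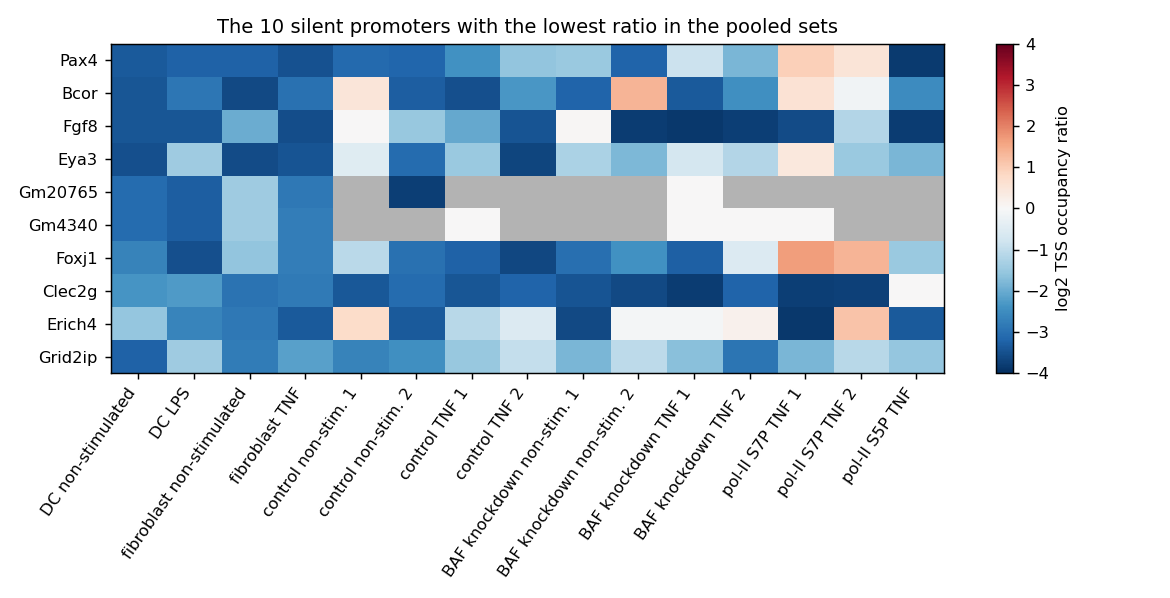
Log2 TSS occupancy ratio (colour, blue for low) of the 10 silent promoters with the lowest mean in the pooled sets (rows, 1 per gene, without another TSS within 1000 bp) in each of the 15 libraries (columns). Grey marks libraries without fragments at the promoter, and white cells of value 0 include promoters without signal in either window. Clec2g is blue in 14 libraries, whereas Gm20765 and Gm4340 are mostly grey outside the 4 pooled sets.

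At the other end, Klra6, a Ly49 receptor gene, had the highest mean log2 ratio in the pooled sets, 1.20 (among scores above 200), with 0.447 and 0.564 in DCs and 1.36 and 2.43 in fibroblasts. It was above 0 in all 8 single libraries too (0.332 to 1.29, median 0.791) and reached 4.88 in S5P. Prl3d1, a placental lactogen gene, had the same mean of 1.20 from a single high value of 3.99 in LPS-stimulated DCs, against 0.721, 0.0353 and 0.0545 in the other pooled sets, and a median of -2.14 in the single libraries. The high value of Prl3d1 was thus confined to 1 pooled set, whereas that of Klra6 recurred.

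Single promoters could look depleted in one cell-type only. Krt5, the keratin of basal epidermal cells, had log2 ratios of -3.13 and -3.62 in DCs and 0.944 and -0.414 in fibroblasts, and Taar7a, a trace amine receptor gene, -3.71 and -3.44 against -0.0885 and -0.178. In the opposite direction, Lim2, a lens membrane protein gene, had -0.754 and -0.354 in DCs but -3.45 and -3.29 in pooled fibroblasts, and Prok2, encoding a secreted neuropeptide, -1.59 and -0.339 against -3.28 and -3.36. The single fibroblast libraries did not repeat the low values of these last genes: the median was -0.00606 for Lim2 and -0.0940 for Prok2. For Krt5 the single libraries gave 0.0474, near its pooled fibroblast mean of 0.265. These promoters were named for the difference, which therefore has no test.

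Breadth separated families that the TSS ratio did not. Keratin promoters had signal in 68.5 and 64.4% of bins in the 2 DC sets but in 94.2 and 90.6% in the 2 pooled fibroblast sets, against 89.6, 86.0, 89.8 and 87.5% for all silent promoters. Of 30 keratin promoters, 29 were broader in fibroblasts, 16 of them by at least 25 points of the 200-bin share, and 0 were broader in DCs by that much. Over all 926 silent promoters 442 were broader in fibroblasts, 57 (6.16%) of them by at least 25 points. In DCs 32 (3.46%) were broader by that much. Keratins proper (6 of 11) and keratin-associated proteins (10 of 19) took part alike. In the 8 single fibroblast libraries, however, the 30 keratin promoters averaged 63.1 to 68.7%, against 62.1 to 67.8% for all silent promoters. The latter include promoters without any fragments in these libraries. Over the 837 silent promoters with fragments in every library the averages were 68.4 to 74.8%. Keratins proper had 70.4 to 78.7% and keratin-associated proteins 58.7 to 64.0%. Among the broadest, Krt13 had 58.0 and 53.0% in DCs against 100% in both pooled fibroblast sets and 87.0 to 95.0% in the 8 single fibroblast libraries, and Krt5 had 68.0 and 50.5% against 100% and 70.5 to 95.5%. The coverage score averages both cell-types and breadth reflects coverage, so the rule also admits promoters covered mainly in either cell-type. Krt13 and Krt5 had scores of 100.2 and 117.5 against a threshold of 100. These counts therefore have no test.

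Other promoters broader in fibroblasts were those of the chemokine Ccl20 (mean of 40.5% in DCs against 97.5%), of prolactin, Prl (42.0 against 96.75%), and of the epidermal regulator Trp63 (38.5 against 90.0%), a gene with another transcript above 0. Broader in DCs were Sdr16c6 (100 against 53.25%), Olfr1230 (99.0 against 59.25%) and 4 of 13 homeobox promoters, among them the limb patterning gene Hoxd12 (92.0 against 57.0%), its neighbour Evx2 (99.5 against 66.0%) and the eye regulator Pax6 (97.75 against 70.25%), of which another transcript was above 0. In the 8 single fibroblast libraries Sdr16c6, Olfr1230 and Hoxd12 averaged 79.4, 76.5 and 69.2%, above their pooled fibroblast means. Evx2 and Pax6 averaged 62.6 and 63.1% there, below theirs, and Ccl20, Prl and Trp63 73.2, 92.8 and 70.25%. Homeobox promoters averaged 91.0 and 86.1% in DCs and 78.1 and 75.0% in pooled fibroblasts. They had 67.4 to 78.0% in the single libraries, against 68.4 to 74.8% for silent promoters with fragments in every library. These 2 ranges overlap. Promoters of 3 T cell markers had 97.7 and 97.3% against 84.3 and 83.5%. Of 19 interleukin, chemokine and interferon promoters, 16 were broader in DCs, but only 1 by 25 points or more. Of all 926 silent promoters 467 were broader in DCs, and of all 11833 covered coding promoters 8025. Breadth rises with the number of fragments, so H3K4me1 level and sequencing depth cannot be told apart in it, and the families were named after their values were seen. As above, the rule also admits promoters covered mainly in either cell-type, and Ccl20 and Prl had scores of 115 and 109.

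**Figure D4:**
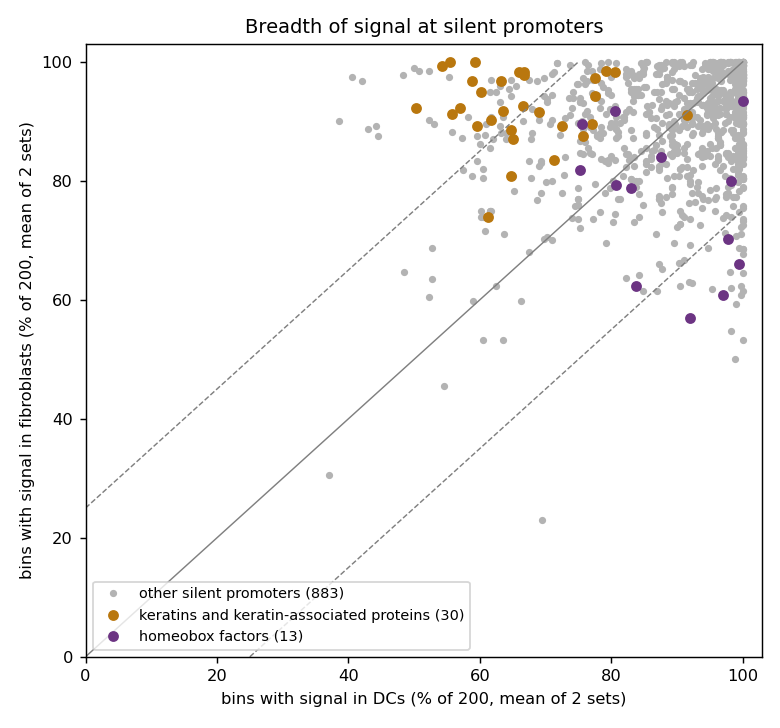
Breadth in DCs (x axis) against breadth in fibroblasts (y axis), each the mean of 2 pooled sets in % of 200 bins, for every silent promoter (grey, 883), with 30 keratin and 13 homeobox promoters in colour. The solid line marks equal breadth and the dashed lines a difference of 25 points, which 16 keratin promoters exceed or reach towards fibroblasts and 4 homeobox promoters towards DCs.

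Mean breadth differed between cell-types in some clusters and not in others. The 16 keratin-associated promoters of the first chr11 cluster averaged 66.3% in DCs and 90.9% in fibroblasts, and the 11 of the second 71.4 and 89.9%. Other clusters went the opposite way, with 98.2 against 77.6% for 9 promoters of kallikrein genes (Klk1b) on chromosome 7 and 88.2 against 77.7% for 11 interferon promoters on chromosome 4. Olfactory receptor clusters were not uniform: Olfr1261 to Olfr1265 on chromosome 2 had 98.9 against 78.3%, and the 8 promoters from Olfr92 to Olfr102 on chromosome 17 had 91.1 against 92.7%. The Ly49 receptor cluster was alike at 91.4 and 90.6%. Promoters of 1 cluster varied too, since DCs minus fibroblasts ran from 1.25 to 28.2 points among the interferon promoters. These clusters were chosen from 22 after their values were seen, and likeness within clusters was not tested.

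With pol-II S5P the silent promoters separated most from expressed ones, at a breadth of 54.5 against 91.4%, whereas the 8 H3K4me1 libraries had 62.1 to 67.8% against 62.1 to 80.8%. S7P gave 49.4 and 63.3% against 80.1 and 87.5%. Over the 837 silent promoters with fragments in every library, breadth was 60.2% for S5P, 54.3 and 69.65% for S7P, and 68.4 to 74.8% for the 8 H3K4me1 libraries. Within the silent class, S5P breadth was 70.4% at CpG island promoters and 52.3% at others. It was 87.0% at the 3 FGF ligands, 84.3% at the 3 T cell markers, 79.8% at the 4 B cell markers and 78.8% at the 3 forkhead factors. Ion channels had 71.7% and homeobox factors 67.85%. Lower values were 44.5% at keratins, 40.5% at serpins and 36.4% at olfactory receptors. S5P is 1 file, so these differences have no replicate.

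**Figure D5:**
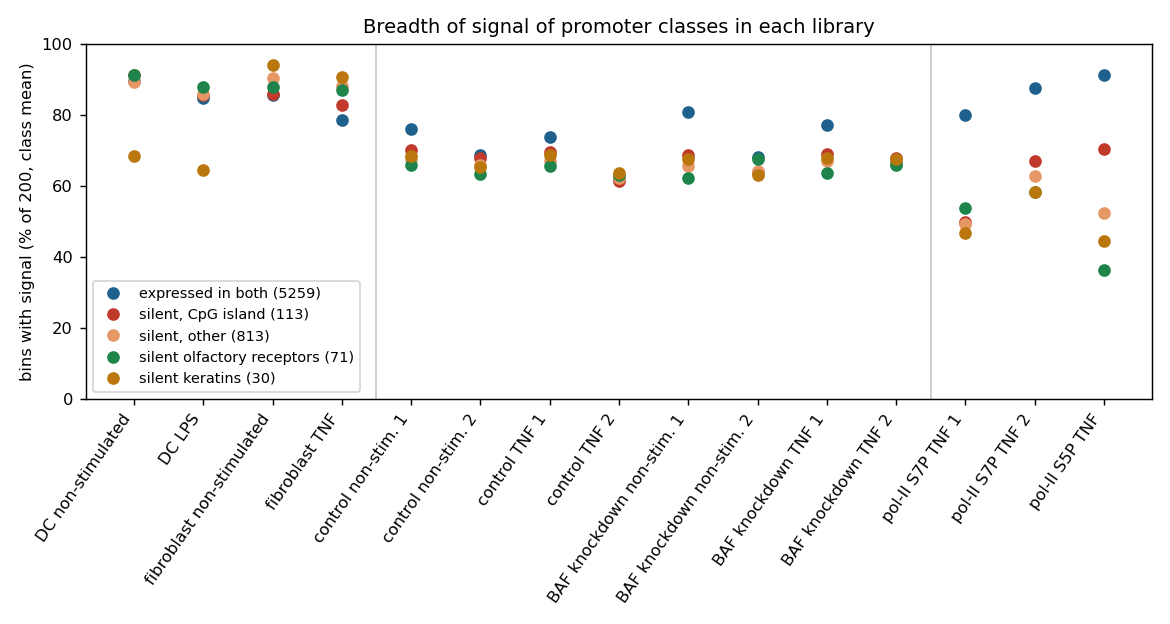
Mean breadth (share of the 200 bins with signal, in %, y axis) of promoter classes in each of the 15 libraries (x axis; each point is 1 class in 1 library). Among the 4 pooled sets keratins are at 68.5 and 64.4% in DCs and above 90% in fibroblasts. In pol-II S5P the silent classes drawn lie between 36.4% for olfactory receptors and 70.4% for CpG islands, below 91.4% for expressed promoters.

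Some silent promoters had no signal at all outside the pooled sets. In each of the 11 single or pol-II libraries 54 to 76 silent promoters were empty, against 1 to 5 expressed promoters, while none was empty in a pooled set. Of the 926, 37 (4.00%) were empty in all 11, 52 in some and 837 in none. Sequence copies went with this: the median share of a promoter's 32-base words found also in another promoter window was 100% for those empty in all 11, 88.7% for those empty in some and 0.870% for the rest. More than 50% was shared by 102 silent promoters (11.02%) against 10 expressed promoters (0.190%).

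The empty promoters lay in duplicated blocks. The Cphx and Duxbl homeobox cluster on chr14:26722379-27081745 held 16 silent promoters, 15 of them empty in all 11 libraries, with a breadth of 85.2 and 97.2% in DC and fibroblast pooled sets but 0.234% in the 8 single libraries. All 6 promoters of the amylase cluster around Amy2a4 on chr3:113094229-113159576 were empty in all 11. The 2 promoters of Tepp were an exception, empty with only 0.102% of words shared. Coverage scores were higher at promoters with an empty library (median 252) than at the others (170). Partial copies also touched covered genes: Ly6c1, a monocyte antigen gene with the highest score (3416), 53.5% shared words and another transcript above 0, had log2 ratios of -0.458 to -0.116 in the pooled sets but a median of -3.90 (-4.03 to -2.004) in the single libraries. Serpinb9f (62.9% shared) had a mean of 0.164 in the pooled sets and a median of -2.60 in the single libraries. What part sequence copies have in these differences was not tested.

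With only the 837 silent promoters that had fragments in every library, the class ratio in the 8 single libraries was 0.928 to 1.02, that of the 109 CpG island promoters 0.738 to 0.919, and that of the 728 others 0.948 to 1.04. The 11 promoters depleted in both cell-types then had 0.146 to 0.602. Just above the coverage threshold lay Cldn34b2, Krt13 and Ppp1r3g (score 100.2 each) and just below it Aqp12, Wdr64 and Tmem235 (score 100 each). Their mean log2 ratios in the pooled sets were 0.27, 0.67 and -0.98, and 0.28, 0.17 and -0.13 in the order Aqp12, Tmem235 and Wdr64.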

How the data were processed

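ChIP-MNase libraries of mouse DCs and 3T3 fibroblasts were used as the authors deposited them. Before deposition, the authors aligned reads to mm9 with bowtie (up to 2 mismatches, up to 5 locations), kept fragments that mapped to 1 promoter region only, limited duplicates, and used fragments between 140 and 180 bp where both ends were read and extended reads elsewhere. Counts per 10 bp bin were divided by the fragments of the 1 kb around it and smoothed over 50 bp. The deposited values are thus a signal that carries neither depth nor promoter level, given as 200 bins per promoter within 1000 bp of the TSS. The deposited annotation gives public RNA-seq expression in FPKM and a coverage score. Its log2 differences of array expression on stimulation, the authors' own comparison, were not used.

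Rows of the occupancy matrices were matched to the annotation by order, which was checked by the depth of the TSS dip of expressed promoters. CpG islands, motifs and 32-base words were computed from the NCBIM37 (mm9) genome. Words were compared between promoter windows over 4000 bp apart only, not with the whole genome. Class ratios were compared over the 8 single H3K4me1 libraries by exact sign-flip permutation (256 patterns), class differences between conditions by exact permutation (70 splits), and patterning levels of all 13559 covered promoters with limma 3.58.1 (R 4.3.3, eBayes, Benjamini-Hochberg at 0.05), after tests on simulated data. The simulated differences were large relative to the spread, so those tests do not show whether small ones would be found. BAF knockdown and TNF-α were additive terms in 1 fit, and single-promoter log2 ratios used a pseudocount of 0.1 times the library mean. Calculations used Python 3.11.15 and pandas 2.3.3.

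Genes were named by rule: the 10 lowest and 5 highest TSS ratios in the pooled sets, the 5 highest scores, the 3 smallest p of each limma comparison, the 3 on each side of the score threshold, the 2 best covered of each family, listed markers and the 5 most different between cell-types in each direction. Genes named for breadth, for a TATA box or for sequence copies, the promoters depleted in both cell-types, the clusters and Hes2 were chosen after their values were seen. The members and the gene lists were chosen with earlier results of these data known. The upstream sequence of 1 of the promoters with the lowest TSS ratio is not reported here.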

Additional observations from a re-analysis of the deposited data

How the results depend on the processing

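Of 218 alternative calculations of the class comparisons and of the counts of called or depleted promoters, 208 kept the result. For class comparisons this means direction and side of the threshold, and for counts an equal or similar count. Most alternatives for counts were 0 calls that stayed at 0, which says little about stability. Of the 16 for the BAF knockdown difference of the silent class, 11 kept it. Silent against expressed promoters ranged from 0.342 to 1.05, CpG island against other silent promoters from -0.258 to -0.103, and silent against expressed islands from 0.279 to 1.09 (adjusted p up to 0.0208 in all 3). Leaving out 1 library gave 0.357 to 0.391, -0.138 to -0.120 and 0.279 to 0.317. The ranges over all alternatives, here and in the next sentence, include the median of single-promoter log2 ratios and thus mix log2 units with class ratios. Those without 1 library are in class ratios only. Near against isolated silent promoters ranged from -0.116 to -0.0377 (-0.107 to -0.0377 without 1 library) and the TNF-α difference from 0.0156 to 0.0474, and neither passed in any. The 15 silent promoters depleted in both cell-types became 9 with the window -100 to 50 bp, chosen after seeing the data. The BAF knockdown difference of the silent class changed sign with the window -100 to 50 bp (-0.0117), with scores above 200 (-0.0302) and without single libraries (-0.0109 to 0.0265), and the cause was not tested. No silent promoter was called under any alternative run. Over all promoters, limma called 1 for BAF knockdown at scores above 200, and for cell-type 10 with each library divided by its mean, 6 at scores above 200 and 7 with fragments in every library, the last chosen after seeing the data. Replicate numbers did not pair the libraries (correlations of same-numbered deviations 0.000413 to 0.0120), and with a replicate block the class differences stayed at 0.00640 for BAF knockdown (p = 0.75 by exact permutation) and 0.0297 for TNF-α (p = 0.5 by exact permutation), with 0 promoters called in every comparison blocked. Of 45 alternatives for the 15 promoters of lowest or highest ratio, 28 stayed within the spread of the pooled sets, 16 moved and 1 changed sign: Krtap1-4 had -0.0123 with the window -100 to 50 bp, in which Fgf8 (-0.65) and Foxj1 (-0.40) rose above -1. A pseudocount of 0.5 times the mean, also chosen after seeing the data, shrank Pax4 to -1.58 and Fgf8 to -1.54. Not run were another distance for near promoters, and for cell-type the block and leaving out 1 set, which leaves no residual degree of freedom. Depth is unknown, and with breadths near 65% in single libraries a ratio of 1 promoter is imprecise.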
